A study of Aspergillus aculeatus with 24 samples.

Results

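The comparison was between 2 strains of Aspergillus aculeatus, BCC56535 and HUT2365, both grown in a medium of wheat bran and soy bean. It took the 8 RNA-seq libraries of these strains from that medium, 4 per strain, out of the 24 libraries and 3 strains of the series. Each strain gave 2 libraries on day 3 (72 h) and 2 on day 6 (144 h), labelled as biological replicates A and B. The mycelium was grown with aeration and no agent or introduced allele is named for either strain. The series describes its strains as differing in the degradation of plant biomass and its media as control and cellulase-inducing conditions. The 8 glucose libraries of the same strains and the 4 wheat bran-soybean libraries of the third strain, BCC199, are used here only beside the main comparison. Separate cultures are not stated for the replicates. The spread behind each p-value is therefore that between the libraries at hand, and it may be technical. In the main comparison it also takes in any change of the strain difference between the days.

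Aspergillus aculeatus is a black mould that is used as a source of enzymes for breaking down plant cell walls. Wheat bran offers cellulose and arabinoxylan, and soy bean adds protein and further cell wall polysaccharides. In aspergilli, genes for cellulases and xylanases are switched on by transcription activators such as XlnR when breakdown products of these polymers are present, and are held down by the repressor CreA while glucose is at hand. The deposited table gives gene IDs and no gene names, and of its 8615 IDs 0 could be matched to the 11152 genes listed for assembly Aspac1. No ID could therefore be assigned to an enzyme family, and the IDs are described by their patterns. How well the reads of each strain fitted the gene models used for counting was not tested.

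The 8 libraries held 19248977 to 27113444 recovered reads, in which 167 to 236 IDs had 0 reads. The day 3 replicate B of HUT2365 stood apart. It had the fewest reads, and its 10 most abundant IDs took 6.35% of the reads against 4.12% to 5.27% in the other libraries. It also differed most from its replicate, with an SD of 0.812 for the log2 difference over the 8340 IDs tested, where the other pairs of the 2 strains in this medium gave 0.518 to 0.632. Levels are given in normalized reads, which are not divided by gene length, so that ranks by reads are not ranks by transcript number. Differences are log2 values of BCC56535 minus HUT2365 with day as a covariate, tested with limma at an adjusted p of 0.05.

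The strains differed in a large share of the IDs tested. Of 8340 IDs tested, 4439 were called (53.2%), of which 2231 were higher in BCC56535 (26.8% of those tested) and 2208 were higher in HUT2365 (26.5%). The median difference over all IDs was 0.009 on the deposited scaling. In all 24 libraries that scaling matched, to a factor of 0.9991 to 1.0004, one by the median ratio of reads between libraries. Such a scaling holds the median difference near 0 and favours similar numbers of calls in both directions, so neither is a result about the strains. In such bulk RNA, fewer cells of a kind and less RNA per cell cannot be told apart. Of the calls, 2972 were at least 2-fold, and 157 were at least 32-fold, with 68 of them higher in BCC56535 and 89 higher in HUT2365. In 3495 IDs (41.9%) the 4 libraries of one strain all lay above the 4 libraries of the other, and 3361 of these were among the calls. Without the day 3 replicate B of HUT2365 the calls numbered 4129, and 3943 of the 4439 were still called in the same direction. Over all libraries left out in turn the calls numbered 3750 to 4129, always fewer than the 4439 and a minority of the IDs.

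**Figure D1:**
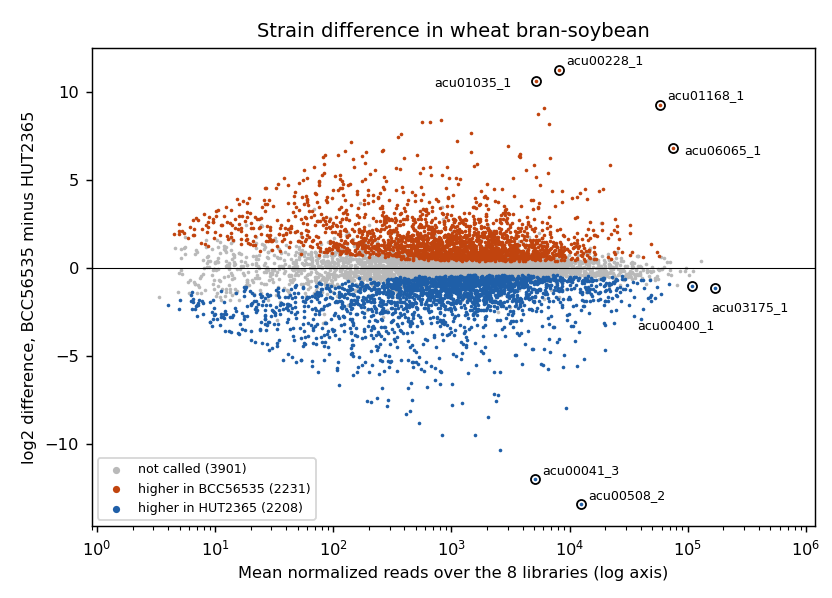
Mean level over the 8 wheat bran-soybean libraries in normalized reads (log axis) against the log2 difference of BCC56535 minus HUT2365, 1 point per ID for 8340 IDs, coloured by call and with the IDs chosen for size or for reads ringed. Calls of both directions, 2231 and 2208, lie at every level, and the widest differences reach 11.28 and -13.45.

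Weakly and strongly expressed IDs were both affected. Among IDs with a mean below 100 normalized reads, 503 of 939 were called (53.6%), and among those from 1000 to 10000, 1968 of 3751 (52.5%). The 519 IDs at 10000 or more had the smallest share, 226 (43.5%), and here 142 were higher in HUT2365 and 84 higher in BCC56535. The median size of the difference was 1.46 on the log2 scale in the lowest class and 0.54 in the highest. The IDs called higher in BCC56535 held 28.6% to 31.4% of the normalized reads of its 4 libraries and 9.95% to 12.8% of those of HUT2365. The IDs called higher in HUT2365 held 32.6% to 36.7% of its reads and 14.4% to 15.7% of those of BCC56535. These shares describe IDs that were chosen by the same values and carry no test. Of the 100 IDs with most reads in each strain, 59 were on both lists, while each list shared 60 (BCC56535) and 57 (HUT2365) with that of BCC199.

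The largest amount of reads that set BCC56535 apart came from acu06065_1, the ID with most reads in that strain. It stood at 131633 and 170372 normalized reads on day 3 and at 132735 and 161921 on day 6 in BCC56535, and at 1870, 1550, 1241 and 857 in the same order in HUT2365. The groups are far apart, with a mean of 149165 ± 19900 against 1379 ± 433 (SD, n = 4 each, both days together). The difference was 6.80 on the log2 scale (SE 0.22, adjusted p = 1.1e-06). BCC199 lay with HUT2365, at 917 ± 36.3. By number of reads it ranked 1 in BCC56535, 3364 in HUT2365 and 4170 in BCC199.

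The second such ID, acu01168_1, ranked 3 by reads in BCC56535 and 6435 in HUT2365. Its levels in BCC56535 were 113811 and 138600 on day 3 and 87140 and 127778 on day 6. In HUT2365 they were 170 and 626 on day 3 and 99 and 106 on day 6. The day 3 replicate B of HUT2365 was its highest library of that strain and still lay far below every BCC56535 library. The difference was 9.28 (SE 0.43, adjusted p = 3e-06), and 9.79 without that replicate. BCC199 lay with BCC56535 this time, at 120003 ± 33100 and rank 9. One strain pair thus shared the high level of acu01168_1, and another pair shared the low level of acu06065_1.

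In HUT2365 the largest amounts of extra reads came from IDs that were abundant in both strains. acu03175_1 had the most reads of all IDs in HUT2365 and ranked 4 in BCC56535. It held 202514 and 379508 normalized reads on day 3 and 162171 and 180155 on day 6 in HUT2365, against 127562, 162167, 48883 and 96463 in BCC56535. The highest BCC56535 library lay just below the lowest HUT2365 library, and the difference was -1.13 (SE 0.33, adjusted p = 0.018). Both the lack of overlap and the call were required for an ID to be named by its reads. The difference of acu03175_1 missed the threshold when the day 3 replicate A of BCC56535 or either day 6 replicate of HUT2365 was left out (adjusted p = 0.054 to 0.055). acu00400_1, which ranked 2 in HUT2365 and 15 in BCC56535, stood at 116328, 199873, 122756 and 136009 in HUT2365 and at 82673, 49688, 68401 and 84424 in BCC56535. Its difference was -1.01 (SE 0.29, adjusted p = 0.017), which also missed the threshold without the day 3 replicate B of BCC56535 (adjusted p = 0.062). Neither ID was called on both days in the limma tests of single days. The adjusted p on day 3 and day 6 was 0.11 and 0.041 for acu03175_1, and 0.025 and 0.14 for acu00400_1.

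**Figure D2:**
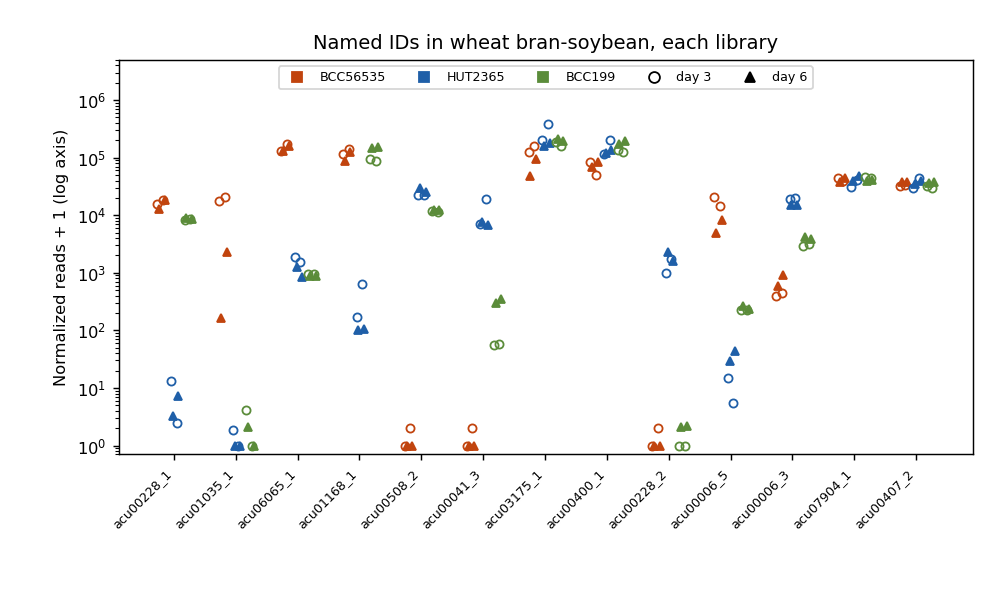
Normalized reads plus 1 (log axis) of 13 IDs in each wheat bran-soybean library of BCC56535, HUT2365 and BCC199, with open circles for day 3 and filled triangles for day 6. BCC199 lies with BCC56535 for acu00228_1 and acu01168_1, with HUT2365 for acu06065_1 and acu00508_2, and all 3 strains lie together for acu07904_1 and acu00407_2.

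The widest fold differences were those of IDs near 0 in one strain. acu00228_1 had 15716 and 18321 normalized reads on day 3 and 12668 and 18592 on day 6 in BCC56535. In HUT2365 it had 12.3, 1.49, 2.22 and 6.4, a ratio of 2590 with a 95% interval of 1740 to 4040 that covers counting error only (log2 difference 11.28, SE 0.44, adjusted p = 1.8e-06). Its level in BCC199 was 8648 ± 314, so HUT2365 was the strain that stood apart. acu01035_1 had 17656 and 21061 on day 3 and 164 and 2323 on day 6 in BCC56535, while the 4 HUT2365 libraries together held 1 read, so the ratio of reads was 39800, interval 7150 to 1570000 (log2 difference 10.63, SE 1.07, adjusted p = 9.8e-05). Here BCC56535 stood apart, since the 4 BCC199 libraries together held 4 reads.

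The mirror image was found for acu00508_2 and acu00041_3, each of which had 1 read over the 4 BCC56535 libraries. acu00508_2 had 22771 and 22259 normalized reads on day 3 and 29825 and 25116 on day 6 in HUT2365, and 11933 ± 581 in BCC199. Its log2 difference was -13.45 (SE 0.24, adjusted p = 2.5e-08), and the ratio of reads was 101000 (interval 18100 to 3980000). acu00041_3 had 7180, 19268, 7598 and 6884 in HUT2365, with the day 3 replicate B above the others, and 187 ± 153 in BCC199. Its ratio of reads was 37500 (interval 6730 to 1480000). Its log2 difference was -12.02 (SE 0.34, adjusted p = 7.3e-07), and -11.70 without that replicate.

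Of the 68 IDs at least 32-fold higher in BCC56535, 38 had a mean below 10 normalized reads in HUT2365 and 36 had a mean of at least 1000 in BCC56535. Of the 89 in the other direction, 42 had a mean below 10 in BCC56535 and 40 a mean of at least 1000 in HUT2365. BCC199 lay nearer to BCC56535 for 28 of the 68 and nearer to HUT2365 for 40, and for the 89 it lay nearer to BCC56535 for 50 and nearer to HUT2365 for 39. Over all calls of at least 2-fold, BCC199 lay nearer to BCC56535 for 708 of 1445 IDs higher there (49%) and for 848 of 1527 IDs higher in HUT2365 (55.5%). On this measure the third strain did not side with one of the pair throughout.

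Complete absence of reads was rare. Over the 4 libraries in this medium, 7 IDs had 0 reads in HUT2365 and a mean of at least 100 normalized reads in BCC56535, and 4 had 0 reads in BCC56535 and at least 100 in HUT2365. Over both media and 8 libraries per strain these numbers were 2 and 1. acu05611_1 was at 0 in all 8 HUT2365 libraries and at 162, 135, 189 and 190 normalized reads in BCC56535 in the bran medium. Set against a floor of 3 reads per library, its level there was at least 51.1-fold higher. It had 0 reads in the 4 BCC199 libraries too, so among the 3 strains its reads in this medium were all from BCC56535. The other ID at 0 throughout HUT2365, acu07839_1, had 0 reads on day 3 and 89.1 and 466 normalized reads on day 6 in BCC56535. It did not pass with both days together (log2 difference 3.34, adjusted p = 0.054), where its change between the days counts as spread. It passed on day 6 alone (6.69, adjusted p = 0.00028). With a mean fitted for each strain and day it also passed over both days (3.34, adjusted p = 0.00099). In these last 2 fits every group but day 6 of BCC56535 held 0 reads throughout. The spread of acu07839_1 itself thus came from that pair alone and was shared with the other groups, so these p-values may be too small. BCC199 held 99.7 ± 36.1 normalized reads of it in this medium.

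In the other direction, acu02366_1 was at 0 in all 8 BCC56535 libraries and at 130 and 933 on day 3 and 1186 and 1056 on day 6 in HUT2365, at least 276-fold higher. It was also present in BCC199, at 2262 ± 941. acu02362_1, also at 0 in all 8 BCC56535 libraries, had 58.2, 61.2, 91.2 and 90.5 in HUT2365, at least 25.2-fold higher, and 0 reads in the BCC199 libraries in this medium. Both passed the test (log2 differences -8.29 and -5.24, adjusted p = 2.4e-05 and 1.3e-05). They were chosen by these same values, and libraries at 0 reads add no spread, so passing is no separate support.

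The IDs carry a number prefix and a member number, and no label or file header explains the prefixes. IDs whose prefix has several members were called about as often as those alone in theirs, 517 of 953 (54.2%) against 3922 of 7387 (53.1%), but 41 of them (4.3%) were called at 32-fold or more against 116 (1.57%). Their median level was lower, 706 against 1090 normalized reads, and the part of level and of reads shared between members in this was not tested. Of 399 prefixes with at least 2 members tested, 70 had members called in opposite directions. Another 28 had at least 2 members called and all higher in BCC56535, and 56 had the same in HUT2365. Over all IDs tested, 26.8% were called higher in BCC56535 and 26.5% higher in HUT2365. Opposite calls therefore also arise among unrelated IDs, and whether the 70 exceed their number was not tested.

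The widest opposite differences within a prefix were those of acu00228, which was named for their size. Whether IDs that share a prefix are related is not known. While acu00228_1 was high in BCC56535, acu00228_2 had 1 read over the 4 BCC56535 libraries and 1005, 1705, 2323 and 1573 normalized reads in HUT2365, and the ratio of reads was 6450, interval 1160 to 255000 (log2 difference -9.48, SE 0.35, adjusted p = 1.6e-06). BCC199 carried the BCC56535 pattern, with 2 reads of acu00228_2 over 4 libraries. In prefix acu00006, which has 6 members in the table, acu00006_5 stood at 21108, 14478, 4908 and 8123 in BCC56535 and at 14.1, 4.48, 28.9 and 42 in HUT2365 (log2 difference 9.08, SE 0.66, adjusted p = 2e-05). Another ID with this prefix, acu00006_3, went the other way (log2 difference -4.96, SE 0.26, adjusted p = 4.6e-06). It held 393, 448, 581 and 913 in BCC56535 against 18960, 20303, 15300 and 15148 in HUT2365. The groups did not overlap for any of these members.

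Some abundant IDs were level between the strains. Of the 8340 IDs tested, at any level, 336 had a 95% interval of the difference within 0.5 of 0 on the log2 scale. For 2672 it lay within 1, but 347 of these were called, so they differed between the strains by less than 2-fold. The first group was led in reads by acu07904_1, at 41084 ± 3310 in BCC56535 and 39959 ± 7070 in HUT2365 (difference 0.05, interval -0.39 to 0.50), and by acu00407_2, at 35531 ± 3250 and 36665 ± 6300 (difference -0.03, interval -0.47 to 0.40). Both were also close to these levels in BCC199, at 42569 ± 3300 and 33795 ± 3940. For 1576 IDs that were not called, the interval reached beyond 1, so a 2-fold difference was not excluded for them.

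Whether the strain difference was tied to the medium was examined in the glucose libraries, which the main comparison does not use. In glucose the strains differed in 4764 of 8348 IDs (57.1%), with 2415 higher in BCC56535 (28.9%) and 2349 higher in HUT2365 (28.1%). Of 2214 IDs higher in BCC56535 in wheat bran-soybean and tested in both media, 1192 were also higher there in glucose (53.8%), 808 were not called and 214 were lower (9.67%). Of the 2181 IDs higher in HUT2365, 1158 were so in glucose too (53.1%), 773 were not called and 250 went the other way (11.5%). The reverse shares were alike, since the 1192 and 1158 IDs made up 49.9% of each direction's glucose calls. Across the 8261 IDs tested in both media, which are not independent replicates, the differences correlated at r = 0.542 (Spearman's rho 0.47).

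The largest differences were mostly found in both media. Of the 67 IDs at least 32-fold higher in BCC56535 and tested in glucose, 59 were called the same way there (88.1%). Of the 85 such IDs in the other direction 62 were (72.9%), beside the 53.8% and 53.1% given above for calls tested in both media. These include each of the 6 IDs acu00228_1, acu00228_2, acu06065_1, acu01168_1, acu00508_2 and acu00041_3. In glucose acu06065_1 stood at 131566 ± 18300 in BCC56535 and 722 ± 48 in HUT2365, and acu00508_2 at 0.555 ± 0.653 and 16134 ± 1390. Whether the larger differences are shared for other reasons than their size was not tested.

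**Figure D3:**
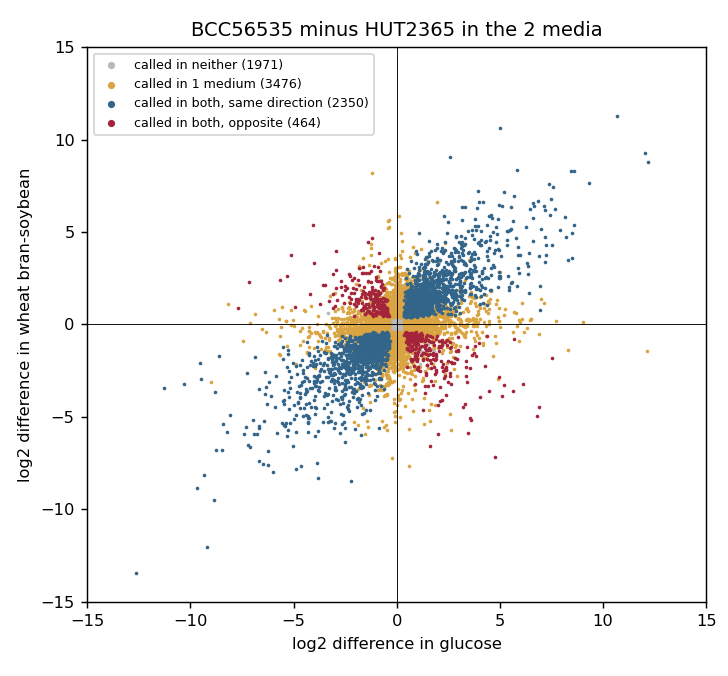
Log2 difference of BCC56535 minus HUT2365 in glucose against that in wheat bran-soybean for the 8261 IDs tested in both, coloured by call. The 2350 IDs called the same way in both lie in the corners of equal sign, 746 of them with a strain difference that differed between the media, 3476 were called in 1 medium, and 464 lie in the opposite corners.

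The strain difference itself differed between the media for 3837 of 8436 IDs (45.5%; limma, contrast of 8 group means over 16 libraries). Without the day 3 replicate B of HUT2365 in wheat bran-soybean the count was 3730. The test called 370 of the 1192 and 376 of the 1158 IDs that were called the same way in both media. It called 538 of the 808 and 538 of the 773 IDs called in wheat bran-soybean alone. Among the first 538, all higher in BCC56535, 133 were at least 2-fold higher in wheat bran-soybean than in glucose in BCC56535 with no such fall in HUT2365. Another 182 were at least 2-fold lower in wheat bran-soybean in HUT2365 with no such rise in BCC56535, 20 showed both and 203 neither. Among the second 538, higher in HUT2365, the corresponding numbers were 167 for a rise in HUT2365 alone, 159 for a fall in BCC56535 alone, 42 and 170. These are differences between group means, and no test was made of each strain's own change.

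The largest contrast of the media was that of acu02372_1, whose strain difference lay in glucose. It held 17958, 16442, 21533 and 18560 normalized reads in glucose in BCC56535 and 3.34, 0, 1.8 and 5.53 in HUT2365. In wheat bran-soybean it held 19.6 and then 0 in the other 3 BCC56535 libraries, and 3.53, 4.48, 16.7 and 11.9 in HUT2365. The contrast of the media was -13.55 (SE 0.83, adjusted p = 2.9e-07), and the difference within wheat bran-soybean was not called (-1.44, adjusted p = 0.21). For acu02413_1 the high level was that of HUT2365 in glucose. It held 431, 428, 456 and 522 there in glucose and at most 11.9 in wheat bran-soybean. BCC56535 held at most 3.84 in glucose and 11.2, 24.3, 53 and 77.3 in wheat bran-soybean (contrast of the media 9.42, SE 0.64, adjusted p = 5.5e-07). The strain difference of acu02413_1 was called both ways, at 2.28 in wheat bran-soybean (adjusted p = 0.014) and -7.14 in glucose (adjusted p = 5.5e-06).

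Opposite calls in the media were made for 464 IDs, and acu07261_1 and acu00117_1 had large differences both ways. In wheat bran-soybean acu07261_1 stood at 21356, 10034, 15460 and 4567 in BCC56535 and at 111, 112, 752 and 502 in HUT2365. In glucose it stood at 149, 157, 371 and 136 in BCC56535 and at 2797, 2923, 3858 and 3121 in HUT2365. So the strain with the higher level changed with the medium, from a difference of 5.39 (adjusted p = 0.00031) to -4.07 (adjusted p = 1.3e-05). BCC199 stood between them in both media, at 1130 ± 89.6 and 1123 ± 74.

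acu00117_1 was the reverse, at 29, 99.3, 24.4 and 4.89 in BCC56535 and 7326, 6159, 2449 and 2278 in HUT2365 in wheat bran-soybean (difference -7.18, adjusted p = 1.3e-05). In glucose it was at 923, 833, 2644 and 2615 in BCC56535 and 49.3, 133, 38.8 and 30.8 in HUT2365 (difference 4.78, adjusted p = 0.00019). It was low in BCC199 in both media, at 44.7 ± 25 and 37.8 ± 4.86. acu02517_1 and acu00558_2 also changed sides. acu02517_1 had differences of 3.75 in wheat bran-soybean and -5.13 in glucose, from levels of 135 ± 64.4 against 9.84 ± 9.31 and of 7.16 ± 7.98 against 215 ± 33. acu00558_2 had -4.95 and 6.79, from 517 ± 754 against 6543 ± 4370 and 3050 ± 2930 against 15.1 ± 4.45, with wide spread between libraries of a strain.

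**Figure D4:**
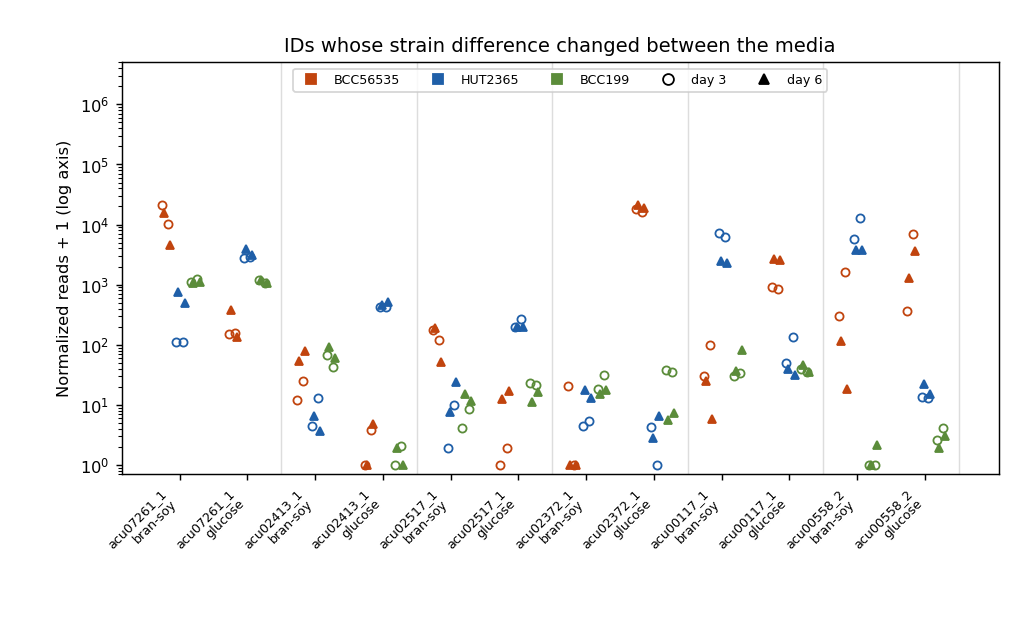
Normalized reads plus 1 (log axis) of the 6 IDs named for the contrast of the media or for opposite calls in them, for each library of BCC56535, HUT2365 and BCC199, with open circles for day 3 and filled triangles for day 6. The colours of BCC56535 and HUT2365 change places between wheat bran-soybean and glucose for acu07261_1, acu02517_1, acu00117_1 and acu00558_2. They also do so for acu02413_1, with some overlap of libraries in wheat bran-soybean.

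The days were next taken apart within wheat bran-soybean. On day 3 the strains differed in 4115 of 8340 IDs (49.3%), and on day 6 in 3706 (44.4%). On both days 1253 IDs were higher in BCC56535 and 1285 higher in HUT2365, and 118 were called in opposite directions. The differences of the days come from different libraries and correlated at r = 0.749 across IDs (Spearman's rho 0.707), and their tests use the same residual spread for each ID. The day 6 count was 2396 without the day 6 replicate A of HUT2365. Without the day 3 replicate B of HUT2365 the counts were 3557 on day 3 and 3950 on day 6.

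The strain difference changed between the days for 710 of 8340 IDs (8.51%), 298 toward BCC56535 and 412 toward HUT2365 on day 6. The count depended on single libraries. It was 364 and 362 without the day 3 replicate A or B of BCC56535, 297 and 301 without the day 6 replicate A or B of HUT2365, and 569 without the day 3 replicate B of HUT2365. In a fit of all 24 libraries it was 1251. In 377 of the 710 the difference had opposite signs on the days. For 596 of them (83.9%) the means of the days lay further apart in BCC56535 than in HUT2365, against 66.7% of all IDs tested. The median size of that day difference over the 710 IDs was 2.12 on the log2 scale in BCC56535 and 0.55 in HUT2365, and over all IDs it was 0.57 and 0.34. These sizes carry no test.

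acu01254_1 was abundant on day 6 in BCC56535 and near 0 in HUT2365 on both days. It held 7.48 and 16.2 normalized reads on day 3 and 2131 and 2394 on day 6 in BCC56535, against 3.53, 1.49, 1.11 and 0 in HUT2365 (change of the difference 8.24, SE 0.75, adjusted p = 0.0012). acu04733_1 was near 0 on day 3 in BCC56535, at 0.935 and 5.06, and at 2592 and 784 on day 6, while HUT2365 held 1763 and 5131 and then 820 and 3674. The strains were thus far apart on day 3 and overlapped on day 6 (change 9.08, SE 1.20, adjusted p = 0.0037). With voom weights on the recovered reads this change missed the threshold (9.77, adjusted p = 0.058).

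The other direction was led by acu05656_1, which held 28610 and 11608 on day 3 and 165 and 718 on day 6 in BCC56535. In HUT2365 it held 325 and 340 and then 1328 and 1110, so the order of the strains turned (change -7.57, SE 0.88, adjusted p = 0.0024). BCC199 had a day pattern like that of BCC56535, with 8882 and 7997 on day 3 and 886 and 830 on day 6. For acu04461_1 the days lay further apart in HUT2365, at 12.3 and 19.4 on day 3 and 1146 and 1129 on day 6, against 369 and 267 and then 120 and 215 in BCC56535 (change -6.98, SE 0.54, adjusted p = 0.0006). With both days together neither was called (adjusted p = 0.25 and 0.66).

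**Figure D5:**
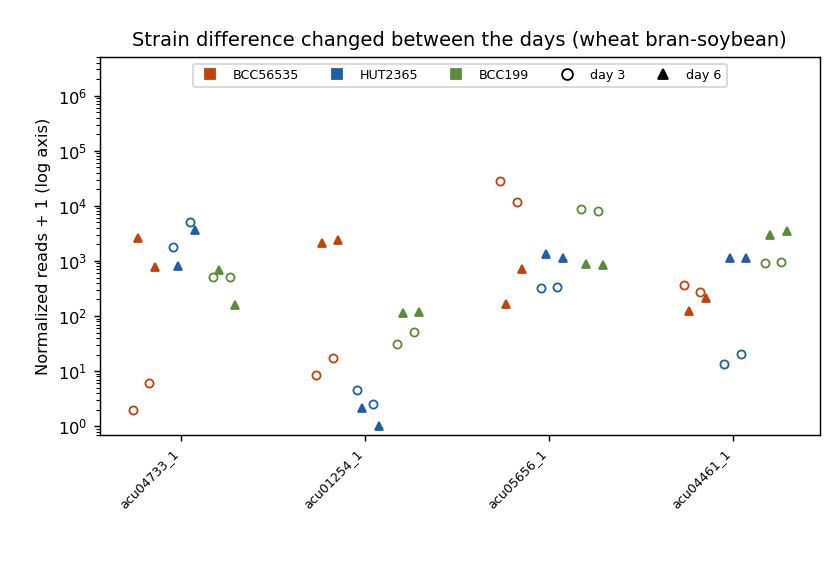
Normalized reads plus 1 (log axis) of the 2 called IDs in each direction with the largest change of the strain difference between the days, in each wheat bran-soybean library, with open circles for day 3 and filled triangles for day 6. Circles and triangles of BCC56535 lie far apart for acu04733_1, acu01254_1 and acu05656_1, and those of HUT2365 for acu04461_1.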

How the data were processed

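RNA-seq values of 24 Aspergillus aculeatus libraries were read from a single deposited table. Per the labels' protocols, ribosomal RNA was removed and messenger RNA enriched before paired-end libraries were sequenced on an Illumina HiSeq2000. The tools named in the submitters' processing notes are StringTie, Picard and HISAT2 2.1.0, with no roles. The sources used here do not give the genome build, the annotation, the counting, the use of strand or the normalization tool. The deposited signal is a normalized read count per ID, scaled by the authors, with a lowest value of 1 in every library. Once the 1 was subtracted, 100% of the IDs in each library were whole multiples of a single step (within 0.02 of a step). That multiple was taken as the read number, and normalized reads are given with the 1 removed.

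Differences were tested with limma 3.58.1 in R 4.3.3, on log2 of the deposited value plus a pseudocount of 1, with an intensity trend over all IDs at 10 or more in at least 2 libraries of the fit (8340 IDs, 275 left out), with two-sided tests and Benjamini-Hochberg adjustment. The main fit held the 8 libraries with day as covariate (5 residual degrees of freedom). Days and their contrast used 4 group means, and the media used 8 group means over 16 libraries. Fold changes on this scale understate the change of low IDs. Ratios against 1 or more reads have 95% exact binomial intervals, and bounds against 0 reads use 3 reads per library. Both cover counting error only. Python 3.11.15, numpy 2.4.6, pandas 2.3.3, scipy 1.17.1 and matplotlib 3.10.9 were also used. The fits were run on counts simulated with the same dispersion for every ID, which checks the code and not the rate of false calls in these data.

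IDs and rules were chosen with earlier results of these data known. The rule named, per direction, at most 2 IDs by size of the strain difference (mean of at least 100, no overlap of libraries), by difference in reads, by contrast of days, by contrast of media, by opposite calls in the media, and by 0 reads in all libraries of a strain. It also named 2 prefixes with opposite members and 2 IDs with most reads and an interval within 0.5 of 0. IDs named by difference in reads also had to have no overlap of libraries. Except for the IDs named by 0 reads or by the interval, named IDs had to pass the test that named them. Their passing was therefore fixed by the choice. No gene list could be applied to IDs without names. Alternatives were other pseudocounts, no filter, other scalings, all 24 libraries, voom weights, the replicate block a 2-fold minimum, 4 group means for the main contrast and each library left out.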

Additional observations from a re-analysis of the deposited data

Results flagged for a closer look

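Single libraries lay apart from the other 3 of their strain in 9 of 62 sets of 4 wheat bran-soybean values, by the size of the gap relative to the range. Chance flags about 1 in 20 sets of normally distributed replicates, which is no yardstick here: each set joins both days, and in 5 of the 9 the other 3 libraries held 0 reads, so that the gap was the whole range. In HUT2365, the day 3 replicate B was high for acu01168_1 (626 normalized reads) and acu00041_3 (19268 normalized reads), and its 10 most abundant IDs took 6.35% of its reads. The day 3 replicate A of HUT2365 had the most IDs with 0 reads among the 4 libraries of that strain, 212. It also held their single read of acu01035_1 (0.882 normalized reads). In BCC56535, the day 3 replicate B held the single reads of acu00508_2, acu00041_3 and acu00228_2 (1.01 normalized reads each). The day 3 replicate A held 19.6 normalized reads of acu02372_1.

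The strain difference changed between the days for 7 of the 27 named IDs (limma, adjusted p under the threshold), beside 8.51% of all IDs tested. Of the 27, 4 were named by this contrast, so their passing was fixed by the choice. The difference on day 6 minus that on day 3, in log2, was 9.08 for acu04733_1, 8.24 for acu01254_1 and 6.69 for acu07839_1. It was -3.24 for acu07261_1, -3.32 for acu00006_5, -6.98 for acu04461_1 and -7.57 for acu05656_1.

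The strain difference in wheat bran-soybean minus that in glucose passed for 18 of the 27, beside 45.5% of all IDs tested. Of the 27, 6 were named by this contrast or by opposite calls in the media, and their passing followed from the choice. The 18 can therefore not be read as an excess over that share. In log2 it was 9.46 for acu07261_1, 9.42 for acu02413_1, 8.87 for acu02517_1, 6.51 for acu00006_5 and 5.63 for acu01035_1. Moderate negative values were those of acu06065_1 (-0.69), acu00508_2 (-0.80), acu04461_1 (-1.89), acu02362_1 (-2.05), acu01168_1 (-2.74), acu00041_3 (-2.81) and acu03175_1 (-3.33). Larger ones were those of acu02366_1 (-4.45), acu00006_3 (-4.85), acu04733_1 (-7.42), acu00558_2 (-11.75), acu00117_1 (-11.96) and acu02372_1 (-13.55). Of these IDs, acu03175_1 was higher in HUT2365 in wheat bran-soybean and higher in BCC56535 in glucose (differences -1.13 and 2.20).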

How the results depend on the processing

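Of 106 recomputed counts of calls, 100 stayed within 1.5 times the count given. The 6 others concern the days. The strain by day contrast called 710 IDs and 1251 in the fit of all 24 libraries, and 297 to 725 when 1 library was left out. The day 6 difference called 3706 IDs and 2396 to 3950 with 1 library left out. The cause was not tested. The main count, 4439, ran from 2972 (with a 2-fold minimum) to 5574 (all 24 libraries), and from 3750 to 4129 with 1 library left out. With 4 group means, where a change between the days stays out of the residual spread, 5072 IDs were called. Of the 4439 IDs, all 4439 stayed called in the same direction there. With all 24 libraries 4407 did, with voom weights 4365 and with quantile normalization 4299. With the replicate block 3717 IDs were called in the main comparison, among them 3700 of the 4439 in the same direction. The block gave 495 calls for the strain by day contrast, with 465 of the 710 kept, and 3652 for the strain by medium contrast, with 3522 of the 3837 kept. The labels do not say that the letters A and B mark a shared culture or batch. Deviations of same-lettered libraries from their group means correlated between the strains at 0.028 on day 3 and 0.017 on day 6 in wheat bran-soybean, and at 0.104 and 0.108 in glucose.

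Of 517 recomputed values of named IDs, 505 stayed on their side of the threshold, and 0 of the called values changed sign. acu07904_1 and acu00407_2, which were not called and lie near 0, took both signs (-0.06 to 0.14 and -0.13 to 0.10). The 5 that lost the call belong to acu03175_1, acu00400_1 and acu04733_1, as given above. The 7 that gained it belong to acu07839_1, whose log2 difference ran from 2.16 to 5.28. Depth limits what can be said of IDs near 0 reads, where the fitted difference depends on the pseudocount and the method. That of acu00508_2 was -13.83 with a pseudocount of 0.5, -11.11 with 10 and -15.21 with voom weights.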
